A study of Mus musculus with 4 samples.

Results

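Open chromatin more than 100 kb from the start or end of every protein-coding gene was examined in newborn mouse hearts. Merging overlapping peaks of the 4 libraries (minimum overlap 1 bp) gave 53140 regions on chromosomes 1 to 19 and X. A region was kept when it held a peak in both WT hearts, was shorter than 1000 bp and lay over 100 kb from every gene end of the GRCm38 gene table. These conditions left 1921 of the 28087 regions called in both WT hearts. Of the 1921 distant regions, 1081 lay in deserts, the stretches between neighbouring genes, and 840 lay deep inside a long gene. The regions were thus chosen by their WT peak calls, width and distance, which are given as descriptions. The calls in the other hearts did not enter the choice.

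The study profiled whole hearts of C57BL/6 mice on postnatal day 0 by ATAC-seq, in which the transposase Tn5 cuts and tags accessible DNA of nuclei. WT 1 and WT 2 were wild type, and edKO 1 and edKO 2 carried a cardiomyocyte-specific loss of both receptors RXR alpha and RXR beta, labelled RXRab-/-. Each library came from 1 heart, so n = 2 per genotype. The driver of the deletion is not given in the sources used here, and in a whole heart the fibroblasts, endothelial cells and blood cells are not targeted by a cardiomyocyte-specific deletion. A change in cell numbers and a change in accessibility per cell cannot be told apart in such a sample.

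Regions that lie this far from genes are the usual setting of distal enhancers. An enhancer is a short stretch of DNA that binds transcription factors and acts on a promoter through looping of the chromatin, often across a long desert. Developmental regulators such as T-box and GATA factor genes are known for deserts filled with such elements. RXR alpha and RXR beta are nuclear receptors that bind DNA as partners of other receptors, among them the retinoic acid, thyroid hormone and PPAR receptors. They recognise pairs of a short hexamer arranged as direct repeats, and the spacing between the repeats sets which partner binds.

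Some distant regions lay at starts of non-coding RNAs or at internal starts of coding genes whose outer ends lie far away. Sequences at such starts are shown because these regions are the members with a known promoter. RefSeq start windows run from 250 bases before to 50 bases after a transcript's start and were taken from the GRCm38.p6 annotation. The windows were searched on both strands for the receptor hexamer AGGTCA, its common variant GGGTCA, a further variant AGTTCA and the related form GGTTCA, with overlapping matches counted, and for direct repeats of these hexamers with a spacer of 1, 2, 4 or 5 bases. Only 3 of the 93 windows that overlapped a distant region held such a repeat, and these 3 are printed 5′ to 3′ along the gene's strand with the hexamers of either strand in capitals. The Rarb window is chr14:16575427-16575726 on the minus strand and lies at an internal start of the retinoic acid receptor beta gene. The Phactr2 window is chr10:13324240-13324539 on the minus strand, in a gene for a phosphatase and actin regulator. The Gm52427 window is chrX:11895206-11895505 on the minus strand, at the start of a long non-coding RNA.
Rarb: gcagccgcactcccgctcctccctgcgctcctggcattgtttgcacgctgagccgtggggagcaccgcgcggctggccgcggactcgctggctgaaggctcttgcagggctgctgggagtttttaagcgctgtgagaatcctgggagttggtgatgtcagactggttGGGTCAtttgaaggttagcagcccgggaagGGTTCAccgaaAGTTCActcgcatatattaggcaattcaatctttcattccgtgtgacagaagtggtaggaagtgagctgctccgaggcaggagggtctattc
Phactr2: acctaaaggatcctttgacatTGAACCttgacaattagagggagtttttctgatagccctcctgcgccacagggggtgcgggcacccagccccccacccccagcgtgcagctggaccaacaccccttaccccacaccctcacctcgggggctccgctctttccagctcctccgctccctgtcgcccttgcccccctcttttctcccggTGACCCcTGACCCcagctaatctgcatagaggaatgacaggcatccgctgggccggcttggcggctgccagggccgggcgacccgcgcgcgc
Gm52427: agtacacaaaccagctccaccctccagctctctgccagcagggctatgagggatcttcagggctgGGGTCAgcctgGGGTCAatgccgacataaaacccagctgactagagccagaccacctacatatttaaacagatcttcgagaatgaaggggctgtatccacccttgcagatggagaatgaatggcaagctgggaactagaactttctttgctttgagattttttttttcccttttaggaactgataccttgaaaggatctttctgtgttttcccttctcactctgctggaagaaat

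The Rarb window held 3 hexamers, of which the last pair formed a direct repeat with a spacer of 5 bases. As background, a retinoic acid response element of this type in the Rarb promoter is a textbook binding site of RXR with a retinoic acid receptor. The Phactr2 window held a direct repeat with a spacer of 1 base on the opposite strand, and the Gm52427 window a repeat with a spacer of 5 bases. Any repeat occurred in 3.23% of the 93 windows, in 0.975% of the 2462 equally remote windows without such a region and in 0.668% of all 32619 windows. The hexamers other than AGGTCA were added to the search after values were seen, and none of the 3 windows with a repeat held AGGTCA itself. These shares are therefore descriptions and support nothing about the distant regions. The spacer of 5 was found in 0.0981% of all windows and the spacer of 1 in 0.224%. At least 1 hexamer was found in 45.2% of the 93 windows in 47.4% of the remote windows without a region and in 43.8% of all windows. AGGTCA alone was found in 23.7%, against 18.9% of the remote windows without a region and 16.2% of all. A match is a string of letters and not a binding measurement.

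Peak height at these 3 regions was as follows. MACS2 gives each peak a −log10 p and a fold enrichment over its local background at the summit, which are the authors' values and serve here to describe and rank peaks within a list. Where 4 values follow one another, here and later, their order is WT 1, WT 2, edKO 1, edKO 2. At the Rarb region, chr14:16575218-16575854, the fold enrichment was 13.3 and 13.2 in the WT hearts (1 and 2) against 7.24 and 3.94 in edKO 1 and 2, and the −log10 p was 50.1, 58.9, 15.1 and 6.01 in the same order. The WT values stood close together and both edKO values lay below them. The libraries differed in median pileup, as given below, so a lower fold in an edKO heart is not read as lower accessibility, here and later. At Phactr2 the fold was 7.44 and 10.4 in the WT hearts and 9.68 and 9.06 in the edKO hearts, so the genotypes overlapped. The Gm52427 region, chrX:11895385-11895795, had a fold of 5.69 and 4.93 in the WT hearts and no peak in either edKO heart.

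The next windows carry no hexamer pair and are shown because their regions were called in all 4 hearts or hold a known RNA. The Esrrg window, chr1:187997577-187997876 on the plus strand, is an internal start of estrogen-related receptor gamma, a regulator of oxidative metabolism in heart. Nav2, at chr7:49245939-49246238 on the plus strand, encodes a neuron navigator protein and held more distant regions than any other gene. Specc1, at chr11:62076774-62077073 on the plus strand, had the strongest region inside a gene. Kcnq1ot1, at chr7:143296498-143296797 on the minus strand, is the imprinted antisense RNA within the potassium channel gene Kcnq1. Dnm3os, at chr1:162217373-162217672 on the plus strand, is the antisense precursor of miR-199a and miR-214 within Dnm3.
Esrrg: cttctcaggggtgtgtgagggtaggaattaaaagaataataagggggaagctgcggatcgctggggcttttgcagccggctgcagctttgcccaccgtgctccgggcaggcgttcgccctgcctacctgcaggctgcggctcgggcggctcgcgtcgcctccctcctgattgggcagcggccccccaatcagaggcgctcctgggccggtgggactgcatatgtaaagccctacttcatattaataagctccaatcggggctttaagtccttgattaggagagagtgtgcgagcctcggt
Nav2: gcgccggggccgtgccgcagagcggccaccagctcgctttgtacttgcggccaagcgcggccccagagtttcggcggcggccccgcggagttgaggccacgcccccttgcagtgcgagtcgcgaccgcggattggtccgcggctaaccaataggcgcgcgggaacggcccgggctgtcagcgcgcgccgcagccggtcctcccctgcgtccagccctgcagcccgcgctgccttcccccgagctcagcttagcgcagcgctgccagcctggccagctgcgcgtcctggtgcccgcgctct
Specc1: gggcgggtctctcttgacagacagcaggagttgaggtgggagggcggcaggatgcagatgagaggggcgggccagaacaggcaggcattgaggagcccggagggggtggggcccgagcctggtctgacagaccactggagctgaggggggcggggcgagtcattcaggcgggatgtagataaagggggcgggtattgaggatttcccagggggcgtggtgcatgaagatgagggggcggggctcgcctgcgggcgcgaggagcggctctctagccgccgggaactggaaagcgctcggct
Kcnq1ot1: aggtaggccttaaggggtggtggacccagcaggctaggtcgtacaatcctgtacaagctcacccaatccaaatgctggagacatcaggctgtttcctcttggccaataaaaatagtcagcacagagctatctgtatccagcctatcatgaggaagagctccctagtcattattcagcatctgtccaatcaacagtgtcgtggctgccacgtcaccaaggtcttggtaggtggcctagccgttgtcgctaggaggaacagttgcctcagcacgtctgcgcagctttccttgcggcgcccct
Dnm3os: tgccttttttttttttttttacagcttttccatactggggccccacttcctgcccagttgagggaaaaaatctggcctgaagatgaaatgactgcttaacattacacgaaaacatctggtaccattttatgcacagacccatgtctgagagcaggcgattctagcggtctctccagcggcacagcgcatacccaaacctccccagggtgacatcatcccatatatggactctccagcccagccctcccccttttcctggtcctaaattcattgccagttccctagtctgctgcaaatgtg

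The Nav2 window was rich in G and C, at 74.7% with 42 CpG pairs, whereas the Dnm3os window had 48.7% with 5 CpG pairs. Specc1 had 67.3% and 20 CpG pairs, Esrrg 60.0% and 19, and Kcnq1ot1 53.3% and 9. The Dnm3os region also spanned both mature forms of miR-199a, the 5p arm at chr1:162217844-162217866 and the 3p arm at chr1:162217883-162217904, both on the plus strand. Their sequences from RefSeq are printed with the seed, bases 2 to 8, in capitals, and the seeds of the 5p and 3p arms differ.
mmu-miR-199a-5p: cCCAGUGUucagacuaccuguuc
mmu-miR-199a-3p: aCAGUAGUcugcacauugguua

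The 4 peak lists were unequal. They held 35279 and 38809 peaks in the WT hearts and 27473 and 27142 in the edKO hearts, and the median pileup of fragments at a summit was 23, 23, 19 and 18. Peaks within 1 kb of a gene end were found at 8 of 9 cardiomyocyte markers in each of the 4 hearts, with Nkx2-5 as the gene without one. Of 6 fibroblast and mural markers, WT 1 had a peak at 2, WT 2 at 4 and each edKO heart at 1, while of 5 endothelial markers WT 1 had a peak at 2 and each of the other hearts at 3. Their part in the results was not tested. Spi1, a myeloid factor gene, had a peak in WT 1 and WT 2 but in no edKO heart. Pecam1, Tek, Col3a1, Rgs5, Ptprc, Csf1r, Gata1 and Sox10 had none in any heart. Far from genes edKO 2 shared least with the other lists: of its 1874 short distant regions, 41.8% were called in WT 1, 43.9% in WT 2 and 37.2% in edKO 1. For edKO 1, with 1840 such regions, the shares were 68.5% in WT 1, 72.4% in WT 2 and 37.9% in edKO 2. The edKO hearts had 698 short distant regions in common, fewer than either of them had in common with either WT heart, whose lists were longer.

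Distant regions were often missing from the edKO lists. Neither edKO heart had a peak at 663 of the 1921 (34.5%, 95% Clopper-Pearson interval 32.4 to 36.7%), whereas 20.7% of all 26256 short regions called in both WT hearts were missing from both edKO lists. Both edKO hearts had a peak at 637 (33.2%, 31.1 to 35.3%), against 56.2% of all short regions. Exactly 1 edKO heart had a peak at 621 (32.3%), against 23.1%. The edKO hearts were not alike, since edKO 1 had a peak at 1160 (60.4%, against 73.8%) and edKO 2 at 735 (38.3%, against 61.7%). Of the 621 seen in 1 heart, 523 were seen in edKO 1 and 98 in edKO 2. Intervals cover counting error only, and regions of the same hearts are not replicates of a genotype, so no test was made over regions.

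The share missing from both edKO lists was larger in each class of distance from a gene. It was 6.84% of 9403 short regions within 1 kb of a gene end, 24.5% of 5631 at 1 to 10 kb, 28.9% of 6995 at 10 to 50 kb and 31.4% of 2306 at 50 to 100 kb. Among the distant regions distance added little further: 35.4% of the 661 beyond 200 kb and 28.0% of the 75 beyond 500 kb (18.2 to 39.6%) were missing from both. Regions inside genes and in deserts gave 33.6% and 35.2%.

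**Figure D1:**
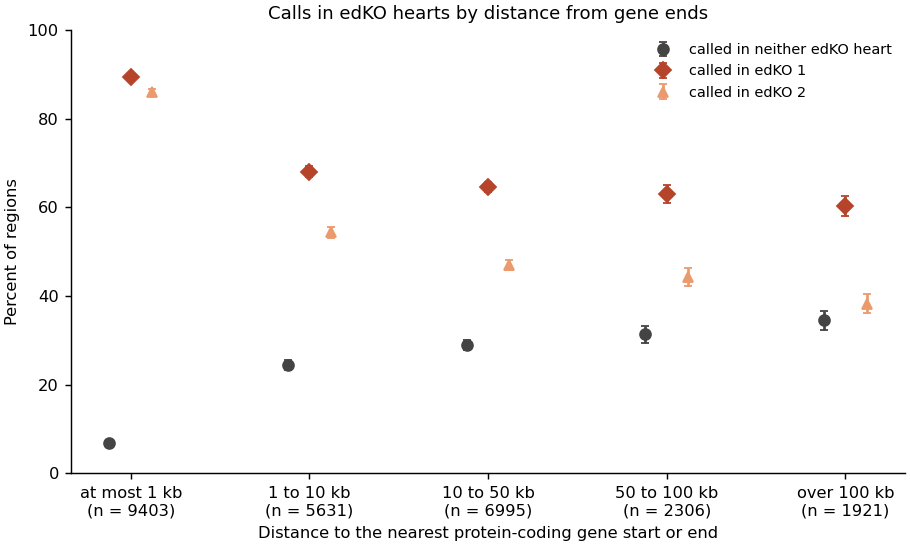
Percent of short regions called in both WT hearts (vertical axis) that were called in neither edKO heart (circles), in edKO 1 (diamonds) or in edKO 2 (triangles), by distance to the nearest protein-coding gene end. Bars are 95% Clopper-Pearson intervals for counting error. Calls in edKO 2 went from 86.1% within 1 kb to 38.3% beyond 100 kb, and calls in edKO 1 from 89.5% to 60.4%.

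Distant regions were weaker than regions at gene ends, and weak regions miss a calling threshold more often. Strength was taken as the mean percentile of a region's −log10 p in the 2 WT lists. Its median was 47.3 for the distant regions, 49.1 for the other short regions over 1 kb from a gene end and 76.8 within 1 kb. With the others weighted over 10 equal classes of strength to match the distant regions, 26.9% of all other short regions were missing from both edKO lists, which is 7.62 percentage points below the distant regions. The gap to the other regions over 1 kb from a gene end was 4.90 points, to those at 50 to 100 kb 2.84 points and to gene ends 16.6 points. The gap to all others was 5.20 points without edKO 2 and 13.5 points without edKO 1, so its size depended on which edKO library was used. For calls in both edKO hearts the distant regions lay 6.23 points below the others over 1 kb from a gene end.

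**Figure D2:**
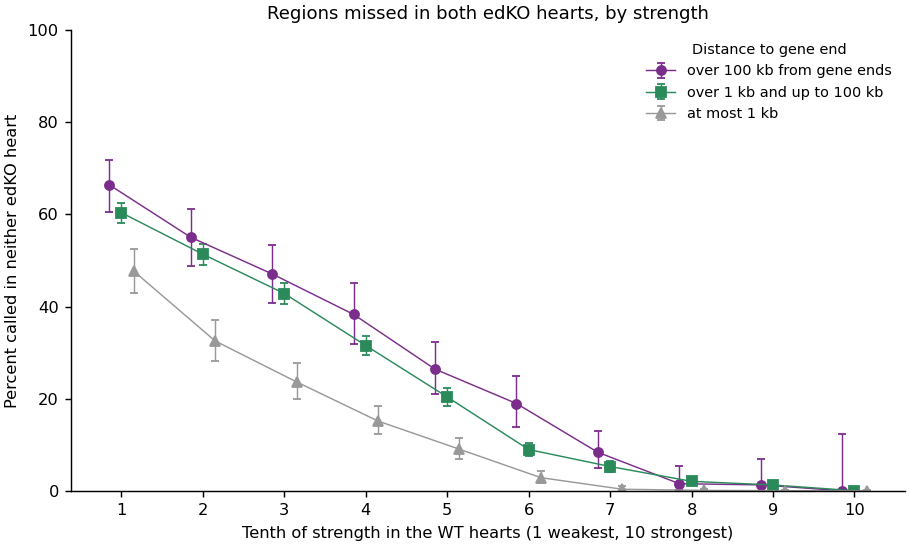
Percent of regions called in neither edKO heart (vertical axis) in 10 classes of strength in the WT hearts, for regions over 100 kb from gene ends (circles), over 1 kb and up to 100 kb (squares) and at most 1 kb (triangles), with 95% Clopper-Pearson intervals. The weakest class held 66.4%, 60.4% and 47.7% missing regions, and in the strongest class none of the 28 distant regions was missing, with an interval up to 12.3%.

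Strength separated the distant regions far more than distance did. Of the 214 at or above the 75th percentile of strength, 194 (90.7%) were called in both edKO hearts and 2 in neither. Of the 665 between the 50th and 75th percentile, 117 (17.6%) were called in neither. Of the 1042 under the 50th percentile, 544 (52.2%) were called in neither and 133 (12.8%) in both. The choice of regions by their WT calls sets a direction, and the reverse count is therefore given beside it. Of the 698 short distant regions called in both edKO hearts, 637 (91.3%) had peaks in both WT hearts, 41 in 1 of them and 20 (2.87%) in none. Within 100 kb of genes the same shares of 14929 such regions were 94.6% for both and 1.45% for none.

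The height of the peaks called at distant regions is given per heart, and the sets differ, with all 1921 regions in each WT heart, 1160 in edKO 1 and 735 in edKO 2. The median −log10 p was 10.9 and 12.4 in the WT hearts (1 and 2) against 9.47 and 7.74 in edKO 1 and 2, and the median fold was 5.56, 6.07, 5.48 and 4.52. As a percentile of the list's own peaks the median was 46 and 51 in the WT hearts and 43.1 and 44.5 in the edKO hearts. The group means were 48.5 ± 3.54 and 43.8 ± 1.02 (SD, n = 2), with p = 0.3333 in a two-sided exact permutation test, the smallest that 2 hearts against 2 allow. As the WT peaks chose the regions and the sets differ, this test supports nothing about the genotypes. Over the 637 regions called in all 4 hearts the median percentile was 66.7 and 70.1 in the WT hearts and 55.5 and 48.7 in the edKO hearts, a difference of −16.3 points with the same p in the same exact test. Ranks within lists of different length do not show a change in accessibility. Measured to whichever WT summit was nearer, the edKO summits lay at a median of 21 bp for edKO 1 and 24 bp for edKO 2, a minimum of 2 distances.

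The distant regions were narrow and mostly simple. Their median width was 408 bp and their median distance from the nearest gene end was 163314 bp. The summits in WT 1 and WT 2 lay a median of 35 bp apart, against 29 bp over all short regions and 32 bp for the others over 1 kb from a gene end. More than 1 peak of the same list fell in 29 of them (1.51%, against 2.78% of all short regions).

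The strongest distant region lay in the desert between Pex2 and 1700008P02Rik, at chr3:5860292-5860919, 281696 bp from Pex2, a peroxisome assembly gene. Its −log10 p was 615 and 504 in the WT hearts (1 and 2) against 304 and 368 in edKO 1 and 2, and its fold was 33.5, 34.1, 31.0 and 32.9. The folds of the 4 hearts lay close together, with both edKO values below both WT values. The next strongest, chr17:39848085-39848813 between Esp15 and Esp38, overlapped Rn18s-rs5 and AY036118. Its −log10 p was 283, 206, 149 and 206 but its fold only 2.89, 2.88, 3.01 and 3.03. Rn18s-rs5 is named for 18S ribosomal RNA, which has many near-identical copies, so reads there may be split or shared and the value is uncertain.

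Other strong regions kept high folds in all hearts. Inside Specc1, chr11:62076574-62077369, the fold was 20.1, 19.1, 22.1 and 19.7. In the desert between F2rl3 and Isx, 589224 bp from the nearer gene end, it was 17.9, 17.7, 18.5 and 14.5. In the desert between Akr1e1 and Klf6, a gene for a Krüppel-like transcription factor, it was 19.3, 20.1, 18.9 and 16.1. Between Pcmtd1 and Sntg1, over the non-coding RNA Gm26901, it was 16, 15.6, 16.4 and 12.98. In each of these 4 the lowest of the 4 values was in edKO 2, except in Specc1, where the lowest was in WT 2.

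The desert beside Tbx20, which encodes a T-box factor needed for heart development, held the eighth strongest region. At chr9:24973946-24974774, over the start of the non-coding RNA E130101E03Rik, the fold was 13.5, 13.7, 13.96 and 13.3. The remaining 3 of the 10 strongest had lower folds in the edKO hearts. Between Eipr1 and Myt1l the fold was 19.4 and 19.8 in the WT hearts and 15.3 and 11.9 in edKO 1 and edKO 2. At the Nav2 start it was 10.6 and 11.5 against 9.52 and 6.93. Between Pabpc6 and Qk, a gene for an RNA-binding splicing factor, at chr17:10079718-10080467, it was 14 and 15.2 against 9.71 and 6.39. In these 3 regions the genotypes did not overlap. Both edKO folds also lay below both WT folds beside Pex2 and between Akr1e1 and Klf6, and above them between Esp15 and Esp38. Single regions were not tested, since 2 hearts against 2 allow no p below 0.3333. How often the genotypes separate in this way over all distant regions was not counted. The median fold at called distant regions was 5.56, 6.07, 5.48 and 4.52, and the lists differed in median pileup (23, 23, 19 and 18). These folds are therefore not read as differences in accessibility.

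**Figure D3:**
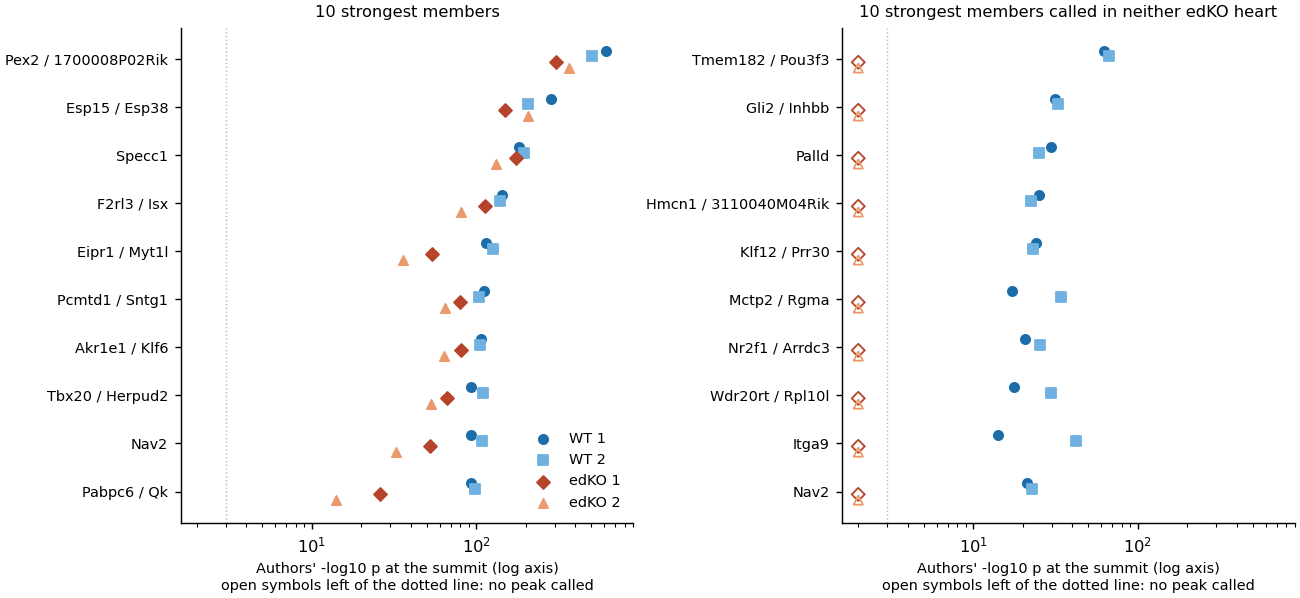
Authors' −log10 p at the summit (log axis) in WT 1 (circles), WT 2 (squares), edKO 1 (diamonds) and edKO 2 (triangles) for the 10 strongest distant regions (left) and the 10 strongest called in neither edKO heart (right), named by flanking or host genes. Open symbols left of the dotted line mean that no peak was called. The left panel runs from 13.9 to 615 and the right panel from 14.2 to 66.6.

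The strongest region missing from both edKO lists lay between Tmem182 and Pou3f3, a POU-domain transcription factor gene. At chr1:42532901-42533329, 162439 bp from Pou3f3, its fold was 15.8 in WT 1 and 16.9 in WT 2, with a −log10 p of 62.5 and 66.6. It stood at the 90.01 percentile of strength, where few regions were missing. The region between Gli2, a hedgehog effector gene, and Inhbb came next with a −log10 p of 31.4 and 32.8. Inside Palld, which encodes the actin-binding protein palladin, a region had 29.8 and 25.3. A region inside Itga9, an integrin gene, had 14.2 and 42.2 and thus differed widely between the WT hearts.

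The other 6 of this group were of like height. Their −log10 p was 25.2 and 22.6 between Hmcn1 and 3110040M04Rik, and 24.2 and 23.1 between Klf12 and Prr30. Beside Rgma, in the desert that starts at Mctp2, it was 17.2 and 34.3, and between Wdr20rt and Rpl10l it was 17.6 and 29.6. The region between Nr2f1, the orphan receptor COUP-TFI, and Arrdc3 had 20.6 and 25.4 and lay 2336800 bp from Nr2f1 and 347157 bp from Arrdc3. The 6th lay inside Nav2 with 21.1 and 22.9. A missing call means that no peak passed the authors' threshold in that heart, and the signal under the threshold is not analysed here.

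Long genes differed in how many distant regions their interior held. In 949 protein-coding genes some interior lay over 100 kb from every gene end, and 346 of them (36.5%) held at least 1 distant region, while 43 held 5 or more. Gene interiors held 3.98 distant regions per Mb of eligible sequence and deserts 1.46 per Mb, against 14.7 short WT regions per Mb within 100 kb of a gene end. Nav2 had most with 18, followed by Kalrn, a guanine nucleotide exchange factor gene, with 14 and Prkce, the protein kinase C epsilon gene, with 13. Pakap, which encodes a paralemmin and A-kinase anchor protein, had 12. Nfia, a nuclear factor I gene, and Cdkal1, a tRNA-modifying enzyme gene, had 11 each. Mast4, Esrrg, Akap6 and Rbms3 had 9 each, and Akap6 anchors protein kinase A at the nuclear envelope of myocytes.

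The calls in several of these genes are given as counts, which rest on few regions per gene, and differences between genes were not tested. Over all distant regions 34.5% were called in neither edKO heart, 32.3% in 1 and 33.2% in both. In Nav2 7 regions were called in neither edKO heart, 5 in 1 and 6 in both. Kalrn had 5, 2 and 7, and Prkce had 7, 2 and 4. In Nfia 3 were called in neither and 6 in both, whereas in Esrrg 2 were called in neither, 5 in 1 and 2 in both. The genes with most eligible interior and no distant region were Lrp1b, with 1858 kb, Dlg2, Pcdh15, Dpp10 and Magi2, which are known from neurons and sensory cells.

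Desert regions also came in runs. When neighbours less than 100 kb apart were joined, the 1081 desert regions formed 603 runs, of which 374 were single regions and 33 held 5 or more, with 210 regions in all. Of all 1921 distant regions, 478 (24.9%) had another within 10 kb. The largest run lay between Prok2 and Rybp, with 12 regions over 295 kb, of which 4 were called in neither edKO heart, 3 in 1 and 5 in both. The desert beyond Myc held a run of 9 over 230 kb with 4, 2 and 3, and the desert beside Foxl1 a run of 9 with 3, 1 and 5. Runs of 8 lay between Rps24 and Zmiz1, between Gm4791 and Cadm1 and between Pgrmc2 and Jade1.

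Calls in the named runs of 7 are also given as counts, and differences between runs were not tested. Over all distant regions 34.5% were called in neither edKO heart, 32.3% in 1 and 33.2% in both. All 7 regions beside Tbx20 were called in at least 1 edKO heart, 5 of them in both. Beside Slc4a3, an anion exchanger gene, 5 of 7 were called in neither and 2 in both. Beside Cxcl12, a chemokine gene, 4 were called in neither, 2 in 1 and 1 in both, and beside Bcl2l11, a cell death gene, the counts were 1, 4 and 2. The highest strength in the Tbx20 run was 95.3 and in the Slc4a3 run 93.6, and their medians were 67.4 and 55.2.

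**Figure D4:**
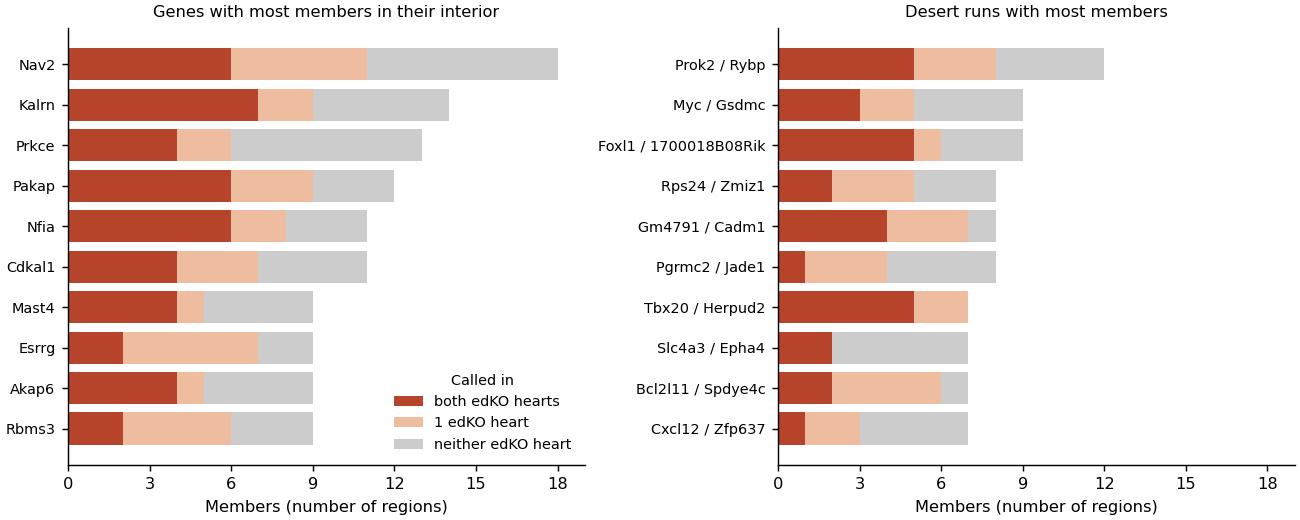
Number of distant regions (horizontal axis) in the 10 genes whose interior holds most (left) and in the 10 desert runs with most (right), split into regions called in both edKO hearts, in 1 and in neither. Nav2 leads the left panel with 18 and the run between Prok2 and Rybp the right with 12, and the Tbx20 run has no region that is missing from both.

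Genes were also examined by lists. A gene was counted when its interior held a distant region or it was the nearest gene on either side of a desert region. The nearest gene can be far away and is not shown to be a target. A desert region counts for the gene on each side, so the same region can appear under different genes and lists. Of 21627 protein-coding genes 849 (3.93%) stood next to a desert region. The 21627 include genes that border no sequence over 100 kb from every gene end and so cannot be counted. Of 50 cardiac and mesodermal transcription factor genes, 22 stood next to a desert region, flanking 64 regions, and 5 more held 17 in their interior. No share among genes that border a desert was computed, so the difference from 3.93% is not read as more open chromatin beside these genes. Gata6 flanked 9, Sox4 8, Tbx20 7, Irx1 5 and Tbx3 5. Hand2, which is needed for the right ventricle, flanked 4, none of them missing from both edKO lists. Foxp1 and Prdm16 held 6 each, Zfpm2 2 and Tead1 1.

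Values are given for the strongest region of several of these genes. The −log10 p ranks peaks within a list, and the lists differed in median pileup (23, 23, 19 and 18). A lower −log10 p in an edKO heart is therefore not read as lower accessibility, here and for the lists below. Beside Irx3 and Irx5, Iroquois factor genes, chr8:91987823-91988396 had a −log10 p of 75.1 and 73.4 in the WT hearts (1 and 2) against 32.6 and 34.6 in edKO 1 and 2. Inside Prdm16, chr4:154496955-154497431 had 79.2, 67.6, 40.0 and 41.3. Beside Hand2, 106555 bp away, the strongest had 35.1, 29.3, 30.9 and 8.64, so edKO 1 lay between the WT hearts. Beside Gata6, 387036 bp away, it had 18.9, 24.3, 10.03 and 8.64. Of the 81 distant regions in or next to this list, 28.4% (18.9 to 39.5%) were missing from both edKO lists, against 34.5% of all distant regions. Their median strength was 50.3, against 47.3 for all distant regions.

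Other genes of this list were next to few regions. Tbx18, Sox11 and Bmp4, which encodes a secreted morphogen, flanked 2 each, Irx2, Irx5 and Msx2 4 each, and Irx3 and Hey2 3 each. Tbx5, Irx6, Mef2c, Meis1, Meis2, Myocd and Nr2f1 flanked 1 each. The single regions next to Tbx5, Irx6 and Myocd were called in edKO 1. Those next to Mef2c, Meis1, Meis2 and Nr2f1 were called in neither edKO heart, as were 34.5% of all distant regions. They lay 1444113, 728342, 668264 and 2336800 bp from these genes, and their strength was 52.9, 29.6, 45.4 and 70.6 in the same order.

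Among 41 nuclear receptor and coregulator genes, 5 held 27 distant regions and 8 flanked 15. Esrrg held 9, Rora, a retinoid-related orphan receptor gene, 7, Ppargc1a, the PGC-1 alpha coactivator gene, 6, Rarb 3 and Nr3c2, the mineralocorticoid receptor gene, 2. None of the 6 in Ppargc1a was missing from both edKO lists and 4 were called in both. The strongest of them, which lies 445188 bp from one end of the gene, had a −log10 p of 57.9, 54.5, 46.4 and 23.2 in WT 1, WT 2, edKO 1 and edKO 2. All 4 regions beside Nr4a3 and both beside Nr5a2 were called in both edKO hearts. The stronger of the Nr5a2 regions lay 937859 bp from Nr5a2 but 164135 bp from Ptprc, at a start of the non-coding RNA Gm4258. Both beside Nr3c1, the glucocorticoid receptor gene, and both beside Nrip1, a receptor corepressor gene, were called in neither, and so were the single ones beside Rorb and Nr2f1. Of the 42 distant regions of this list 33.3% (19.6 to 49.5%) were missing from both, against 34.5% of all distant regions. Their median strength was 55.0, against 47.3 for all distant regions.

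Of 49 cardiac contractile, calcium and ion channel genes 30 had eligible interior, and 22 of these held 73 distant regions. Over all genes with eligible interior 36.5% held any. The density was 6.32 per Mb of eligible interior in this list, against 3.98 per Mb over all gene interiors. Ank3 held 9, Cacna1c, the L-type calcium channel gene, 7, Pde4d 6, and Rbfox1 and Palld 5 each. Sgcd and Sorbs2 held 4 each, and Ttn, Ryr2, Cacnb2, Slc8a1, Pde1c and Fhod3 held 3 each. Of the 85 distant regions in or next to this list 29.4% (20.02 to 40.3%) were missing from both edKO lists, against 34.5% of all distant regions. Median strength was 52.7 in this list and 47.3 over all distant regions. The region beside Kcnj2, an inward rectifier channel gene, had a −log10 p of 40.3, 51.7, 17.6 and 16.7. Inside Ryr2, the calcium release channel of the sarcoplasmic reticulum, the strongest had 12.7, 10.9, 13.9 and 7.25, so the genotypes overlapped.

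Ttn's strongest region, in the gene of the sarcomeric spring titin, had a −log10 p of 24 and 23.9 in the WT hearts and 11.5 and 9.33 in the edKO hearts. Inside Pde4d, a phosphodiesterase gene, the values were 45, 57, 18.3 and 8.64. Inside Trdn, which encodes triadin of the calcium release complex, they were 25.2, 25.6, 14.3 and 6.04. In Ank2, an ankyrin gene, the strongest region had 17.1 and 15.8 and no call in either edKO heart. The single region inside Prkg1 was also called in neither.

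Very long neuronal adhesion and synapse genes held few distant regions. All 24 of them had eligible interior, yet only 11 held distant regions, 20 in all or 0.668 per Mb, against 3.98 per Mb over all gene interiors. Cdh13, which is also found in heart and vessels, held 6 of the 20 and Macrod2 3. Of the 35 distant regions in or next to this list 57.1% (39.4 to 73.7%) were missing from both edKO lists, against 34.5% of all distant regions. Their median strength was 39.4, against 47.3 for all distant regions, and its part in the share was not tested. Of the 30 fatty acid and glucose metabolism genes, only Ppargc1a held distant regions and only Lpin1, a phosphatidate phosphatase gene, flanked any, with 4 of its 7 missing from both. The percentages by list rest on few regions and their differences were not tested.

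The lists of other cell types had few distant regions. The 16 endothelial and vessel genes had 15, of which 8 were missing from both edKO lists (53.3%, 26.6 to 78.7%), against 34.5% of all distant regions. Their median strength was 39.9, against 47.3. Nrp1, a semaphorin and VEGF co-receptor gene, flanked 6 and Ets1 5, with 3 of each missing from both, while Erg held 1 and Cdh5, Kdr and Prox1 flanked 1 each. Of 14 fibroblast and mural genes only Dcn flanked any, with 2. Of 10 immune, erythroid and neural genes Ptprc and Runx1 flanked 2 each. The stronger region beside Ptprc is also the stronger region beside Nr5a2. The part of cell composition in the calls was not tested.

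Regions at RefSeq starts were called in both edKO hearts more often than other distant regions of like strength. The gap was larger at coding than at non-coding starts, where the interval for counting error held the share at like strength. Neither gap was tested. On the chromosomes that the table of RefSeq starts covers lay 1832 distant regions, and 88 of them overlapped a start window, 34 of protein-coding genes and 54 of long non-coding RNAs. Of the 88, 54 (61.4%) were called in both edKO hearts, against 46% of the other distant regions weighted to like strength. For the 34 coding starts it was 25 (73.5%, 55.6 to 87.1%) against 48.7%, and 2 (5.88%) were missing from both against 24%. The 2 were Pde7b and Mid1. For the 54 non-coding starts 29 (53.7%) were called in both against 44.3%, and 14 (25.9%) were missing from both against 27.4%.

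Few of the remote starts carried a region at all. Of 175 coding start windows over 100 kb from every coding gene end, 35 (20%) overlapped a distant region, as did 58 of 2380 non-coding ones (2.44%). The coding windows with a region had a median of 57.7% G and C and 12 CpG pairs, and those without had 49.3% and 6. The non-coding windows had 52.3% and 5 with a region, and 45% and 3 without. At 67 of the 88 the WT summit lay within 150 bp of the start, and the median distance was 71 bp.

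**Figure D5:**
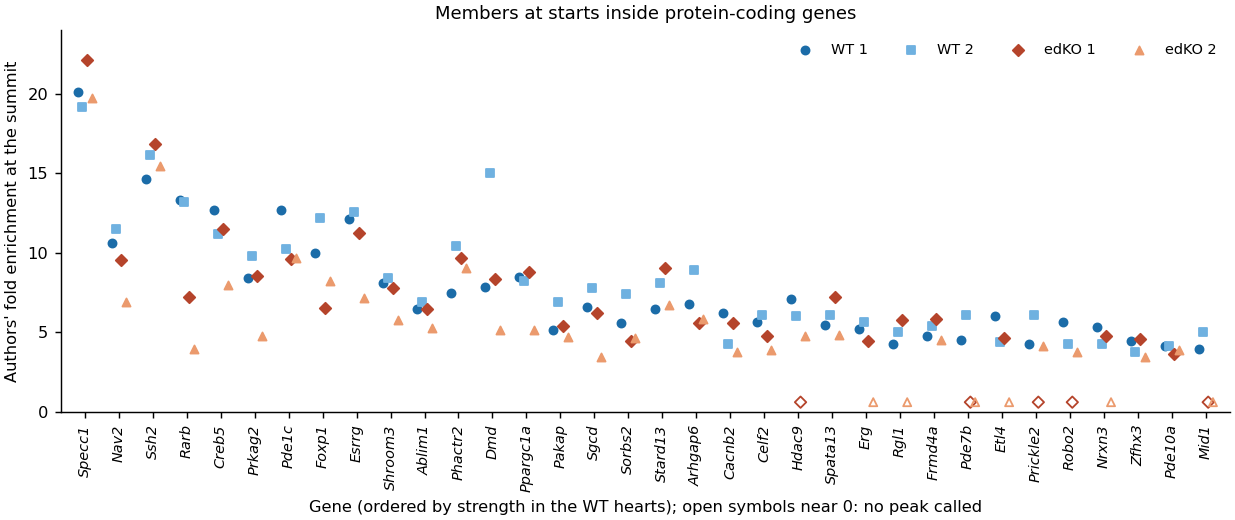
Authors' fold enrichment at the summit (vertical axis) for the 34 distant regions at starts inside protein-coding genes, ordered by strength in the WT hearts, in WT 1 (circles), WT 2 (squares), edKO 1 (diamonds) and edKO 2 (triangles). Open symbols near 0 mean that no peak was called. Specc1 lies between 19.1 and 22.1 in all hearts, whereas Rarb lies at 13.3 and 13.2 in the WT hearts and at 7.24 and 3.94 in the edKO hearts.

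Several internal starts belong to genes of heart muscle. At the Esrrg start the fold was 12.2 and 12.6 in the WT hearts (1 and 2) against 11.2 and 7.19 in edKO 1 and 2. At a start inside Dmd, the dystrophin gene, it was 7.83, 15, 8.36 and 5.13, and the WT hearts differed from each other by more than edKO 1 from WT 1. At Sgcd, a sarcoglycan gene, it was 6.56, 7.80, 6.21 and 3.42. At Ppargc1a the fold was 8.47, 8.22, 8.78 and 5.13, and the summits lay 541 to 634 bp upstream of the start. The edKO 2 value was the lowest at each of these 4 starts.

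Non-coding starts gave similar values. At Kcnq1ot1 the fold was 11.9 and 12.2 in the WT hearts (1 and 2) against 12.01 and 6.67 in edKO 1 and 2, so edKO 1 lay between the WT hearts. At Dnm3os it was 8.33, 10, 6.55 and 4.45, with both edKO values below both WT values. Within 1 kb of the end of any non-coding gene lay 154 distant regions, 142 of them next to a long non-coding RNA. Of the 154, 76 (49.4%) were called in both edKO hearts and 46 (29.9%) in neither, against 31.7% and 34.9% of the other 1767. These shares were not weighted to like strength, and the median strength was 54.1 for the 154 against 46.2 for the others.

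The chromosomes differed in their density of distant regions. Chromosome 13 had most with 156, or 3.71 per Mb of eligible sequence, and chromosome 9 had 3.33 per Mb. Chromosome X had 23, or 0.339 per Mb, the lowest. Within 100 kb of gene ends chromosome X was also lowest, with 4.52 short WT regions per Mb against 12.5 to 22.7 on the autosomes.

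The limits of the rule cut through like regions. Just inside 100 kb lay regions between Magi3 and Lrig2 at 100028 bp, beside Bod1 at 100101 bp, between Tbc1d1 and Gm38457 at 100116 bp and inside Erg at 100140 bp. Just outside lay regions in Rabgap1l at 99988 bp, Camk2d at 99968 bp, beside Irx3 at 99931 bp, in Auts2 at 99757 bp and in Dip2c at 99699 bp. The widest distant regions were 992, 989 and 970 bp, and the narrowest that failed by width were 1008, 1012 and 1078 bp. The 19 regions that failed by width alone are not described further. The most remote region lay between Hace1 and Grik2, 1666783 bp from the nearest gene end, with a fold of 9.25 in WT 1, 9.998 in WT 2 and 3.98 in edKO 1 and no call in edKO 2.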

How the data were processed

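ATAC-seq peaks of 4 mouse hearts, 2 WT and 2 edKO on postnatal day 0, were analysed as deposited. MACS2, Bowtie2, SAMtools, cutadapt, bcl2fastq and CASAVA are the tools that the submitters' processing notes name, with the build mm10 (GRCm38), and their versions and settings were not given in the sources used here. Each list was called on 1 library, not on pooled samples. Per the file format, the authors' values are a deposited integer score, a fold enrichment (a ratio over local background), a −log10 p and −log10 q at the summit, and the summit's offset in bp. No read totals were used. Pileup at a summit was recovered from the authors' deposited fold and −log10 p, and was whole to within 0.001 in −log10 p for at least 99.9858% of peaks.

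Regions were merged at 1 bp of overlap and measured against the RefSeq gene table of GRCm38.p6. Shares have Clopper-Pearson intervals at 95%. Comparisons at like strength weight the other regions to the members over 10 classes. The 1 comparison tested, of median percentiles, used an exact permutation test over the 4 libraries. Peaks below the calling threshold are not listed. Named items were the 10 strongest regions, the 10 strongest called in neither edKO heart, the 10 genes and 10 runs with most regions, the 5 on either side of the distance limit and the genes of 8 lists with a region, and some of these items are not reported here. RefSeq starts, the hexamers other than AGGTCA, the spacer of 2, the tissue markers and the values at starts were added after values were seen. The members and lists were chosen with earlier results of these data known. The alternatives were another overlap, thresholds, list length, distance, gene types, width, strata and leaving out each library. Python 3.11.15 was used with pandas 2.3.3, numpy 2.4.6, scipy 1.17.1 and matplotlib 3.10.9, and the merging and counting were tested on simulated data.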

Additional observations from a re-analysis of the deposited data

How the results depend on the processing

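The shares of called regions come from no test, so no replicate block was fitted to them. With a replicate block, same-numbered hearts being paired by number only, the difference in median percentile remained −4.72 points with an exact sign-flip p of 0.5, the smallest that 2 pairs allow. It was −16.3 over the regions called in all 4 hearts and −7.23 to −2.21 without 1 library, −7.23 being without WT 1 and −2.21 without WT 2. These alternatives for the percentile were chosen after seeing the data. The member count, the 4 shares, the difference at like strength and the percentile were recomputed. The difference and the percentile kept their sign, while a count or a share has no direction to change. The count moved by more than a factor of 1.5 under 6 alternatives and by less under 6. The share called in neither edKO heart left its interval under 6 and stayed within it under 6. The starts, gene lists, runs and single regions were not recomputed. The number of distant regions was 884 when every list was held to a −log10 p of 10 or more, 1261 with lists of equal length, 4227 over 50 kb, 661 over 200 kb and 351 with genes of every biotype, and 1924 to 3127 when 1 library was left out. The share called in neither edKO heart was 44.2% at the stricter threshold, where all short regions gave 23.6%, and 23.1% with equal lists, where they gave 11.5%. Without 1 library it was 39.5 to 61.7%, where they gave 25.97 to 38.2%. The share in edKO 1 was 53.2% at the stricter threshold, 73.0% with equal lists, 57.0% with every biotype and 43.0 to 60.5% without 1 library. The share in edKO 2 was 24.9%, 49.2%, 34.5% and 26.6 to 38.3% in the same order, and 41.6% over 50 kb. The share in both was 22.3%, 45.2% and 27.4%, 36.2% over 50 kb and 21.5 to 24.9% without 1 library. The difference at like strength was 7.62 points, 11.2 at the stricter threshold, 14.9 without classes of strength and 5.20 to 13.5 without 1 library. Under 11 of 15 alternatives the difference shifted by no more than the counting error of the distant regions' share called in neither edKO heart. No spread of the difference itself was computed. Without a library the shares rest on fewer lists, and the causes of the other shifts were not tested. The part of sequencing depth in the missing calls was not tested, and a missing call is not a closed region.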

Other observations

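Distant regions outside the main group were also counted. Of 5206 short regions over 100 kb from every gene end in any list, 1895 were called in exactly 1 WT heart and 1370 in 1 edKO heart and no WT heart. Of the 2637 called in WT 1, 72.8% were called in WT 2, 47.8% in edKO 1 and 29.7% in edKO 2. Of the 3100 called in WT 2, 62.0% were called in WT 1, 43.0% in edKO 1 and 26.5% in edKO 2. Within 100 kb of genes the shares for WT 1 were 81.1%, 63.6% and 53.8%.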
